A study of Mus musculus with 10 samples.

Results

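The genes described here code for enzymes that make serine, pass its carbon through the folate pools of the cytosol and the mitochondria, and make proline: Phgdh, Psat1, Psph, Shmt1, Shmt2, Mthfd2, Mthfd1l, Aldh1l2, Aldh18a1 and Pycr1. They were chosen by name as probe sets whose only annotated gene symbol was one of these 10, and 9 of the 10 had such a probe set, 1 each, out of 19938 genes with one. Pycr1 had none and was not analysed here. Ventricular RNA from 10 mice was hybridised to Affymetrix mouse gene arrays, and no array was shared by 2 mice. In the control group, 5 mice titled PGC-1a-/- were labelled as lacking PGC-1a with PGC-1b expression unaffected, and were given sunflower seed oil alone. In the other group, 5 mice titled PGC-1a-/-bf/f/MerCre were labelled as lacking PGC-1a and PGC-1b, and were given tamoxifen at 50 mg/kg per day on 2 days in a row. Injections were at 2 months of age and hearts were taken 1 month later, at 3 months. Both groups are labelled as sharing the PGC-1a deletion, and no group labelled as having PGC-1a was compared. The source names give PGC-1a-/-bf/f/MerCre to the oil-treated mice too, which their titles do not. The promoter that drives MerCre, a Cre recombinase switched on by tamoxifen, is named neither in the labels nor in the design text. A mouse given tamoxifen without the floxed alleles is not among the groups.

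Serine is made from a glycolytic intermediate in 3 steps. Phgdh oxidises it, Psat1 moves an amino group onto it from glutamate, and Psph removes the phosphate. Shmt1 in the cytosol and Shmt2 in mitochondria split serine into glycine and a one-carbon unit carried by folate. Inside mitochondria Mthfd2 oxidises that unit, Mthfd1l releases it as formate for nucleotide synthesis, and Aldh1l2 burns it to carbon dioxide while making NADPH. Proline is built from glutamate by Aldh18a1, the pyrroline-carboxylate synthase, and then by Pycr1. Several of these genes are known targets of the transcription factor ATF4, and muscle with failing mitochondrial respiration is known to raise Psat1, Mthfd2 and their kin.

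Psat1, Mthfd2 and Aldh18a1 were higher in the tamoxifen-labelled arrays, by 1.41-fold, 1.44-fold and 1.28-fold. The other 6 measured enzymes did not pass the test, among them Phgdh and Psph, the first and last enzymes of serine synthesis. Of the 9 enzymes, 3 were higher (33.3%) and 0 lower at a limma adjusted p of 0.05, and 1 was lower at an unadjusted p of 0.05. Of the 13957 genes tested, 13.6% were higher and 8.28% lower, 21.9% in all. The median log2 difference of the 9 was -0.0040, against 0.014 over all tested genes. The groups did not overlap in 2 enzymes that were higher (Psat1 and Aldh18a1) and 1 that was lower (Shmt2), against 10.5% and 6.12% of all tested genes, 16.6% together. In whole ventricles a change in the number of cells of a type and a change in RNA per cell cannot be told apart. All differences are given as log2 signal in the tamoxifen-labelled arrays minus that in the vehicle-labelled arrays, with the SE after ±. Signals of different probe sets have no common scale, so they are not ranked between genes as amounts of RNA. The filter on dim genes and the summed marker levels below use them as they are.

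The gene targeted by tamoxifen went against its label. Ppargc1b, which codes for PGC-1b, read 9.76 ± 0.10 in the vehicle-labelled and 10.03 ± 0.10 in the tamoxifen-labelled arrays (SD, n = 5). The difference was 0.27 ± 0.061 (limma adjusted p = 0.00529), and the groups did not overlap. The gene for PGC-1a itself, Ppargc1a, carries a deletion in all 10 mice by the labels. Its signal was 10.81 ± 0.14 in the vehicle-labelled and 11.20 ± 0.23 in the tamoxifen-labelled arrays (SD, n = 5), a difference of 0.39 ± 0.095 (limma adjusted p = 0.00814). Whether these probe sets lie in the deleted exons is not stated by the labels. The directions that follow are those of the labels and have no backing from the targeted genes. Tamoxifen-labelled array 2 stood above the rest in median log2 signal (7.31, the others 7.18 to 7.24), and without it 11.6% of tested genes were higher and 11.8% lower. Psat1, Mthfd2 and Aldh18a1 were also called higher without it. Heart muscle markers had vehicle-labelled means from 12.90 (Ryr2) to 14.56 (Actc1). The 9 enzymes lay above the log2 signal of 6.53 below which genes were not tested. Precision is limited by having 5 arrays in a group. The labels do not say whether the mice shared litters. The limma p-values set each difference against the spread between these arrays, which limma adjusts using all tested genes.

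**Figure D1:**
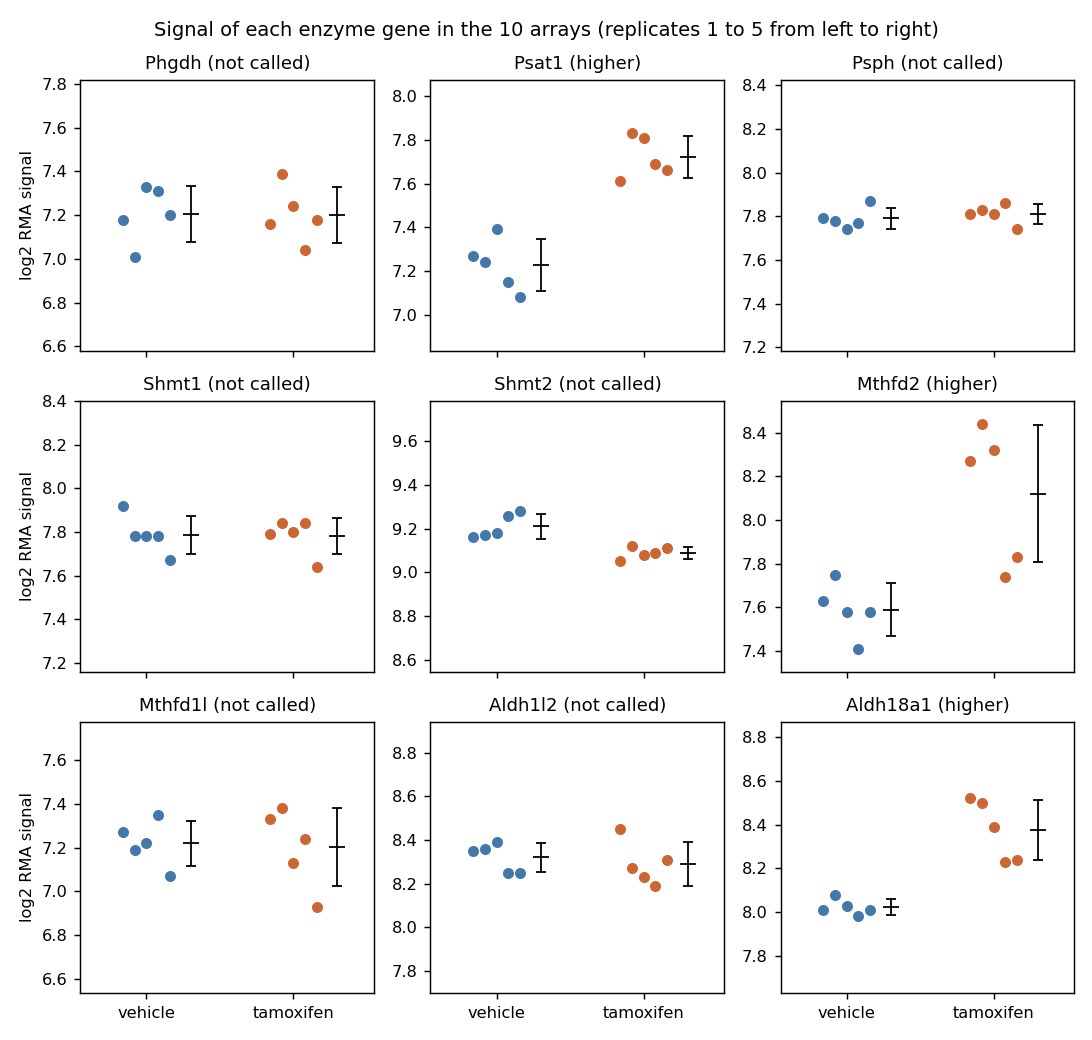
Log2 RMA signal (vertical axis) of the 9 measured enzyme genes in each vehicle-labelled (blue) and tamoxifen-labelled (orange) array, with all panels spanning the same height in log2 units. The black mark and bar are the mean and SD of 5 arrays. The groups are apart in Psat1, Aldh18a1 and Shmt2, and in Mthfd2 only tamoxifen-labelled array 4, at 7.74, lies within the vehicle-labelled range.

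In serine synthesis, the middle enzyme alone passed the test. Psat1, the phosphoserine aminotransferase (probe set 10466410), read 7.27, 7.24, 7.39, 7.15 and 7.08 in vehicle-labelled arrays 1 to 5. It read 7.61, 7.83, 7.81, 7.69 and 7.66 in tamoxifen-labelled arrays 1 to 5. Every tamoxifen-labelled value lay above the highest vehicle-labelled one, and the rise was 0.49 ± 0.064 (limma adjusted p = 3.26e-05). The 95% interval ran from 0.36 to 0.63.

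Phgdh, the dehydrogenase of the first step (probe set 10500529), read 7.18, 7.01, 7.33, 7.31 and 7.20 in the vehicle-labelled arrays. In the tamoxifen-labelled arrays it read 7.16, 7.39, 7.24, 7.04 and 7.18. The ranges lay almost on top of each other, with a difference of -0.0040 ± 0.071 and a 95% interval from -0.15 to 0.15. A second probe set (10558439), annotated to both Phgdh and Gm6756, read 7.99 ± 0.077 and 8.04 ± 0.11 (SD, n = 5), and cannot be given to 1 of these genes. Psph, the phosphatase of the last step (probe set 10534075), ranged from 7.74 to 7.87 in the vehicle-labelled and from 7.74 to 7.86 in the tamoxifen-labelled arrays. Its difference was 0.020 ± 0.046, with a 95% interval from -0.079 to 0.12. The upper bounds for Phgdh and Psph both lie below the lower bound for Psat1.

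Among the enzymes that take the one-carbon unit from serine, neither passed. Shmt2, the mitochondrial enzyme (probe set 10373202), read 9.16, 9.17, 9.18, 9.26 and 9.28 in the vehicle-labelled arrays. It read 9.05, 9.12, 9.08, 9.09 and 9.11 in the tamoxifen-labelled arrays. All 5 tamoxifen-labelled values lay below the lowest vehicle-labelled one, but the difference was small, -0.12 ± 0.046, and missed the threshold (limma adjusted p = 0.0745). It passed without tamoxifen-labelled array 2 (adjusted p = 0.0458), with quantile normalization (0.0228), with array weights (0.0399) and with the stricter filter on dim genes (0.0455), in a range of 0.0228 to 0.173 over all alternatives. Shmt1, the cytosolic enzyme (probe set 10386604), read 7.92, 7.78, 7.78, 7.78 and 7.67 against 7.79, 7.84, 7.80, 7.84 and 7.64. Its groups overlapped, with a difference of -0.0040 ± 0.057 and a 95% interval from -0.12 to 0.12.

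Of the mitochondrial folate enzymes, Mthfd2 rose and the other two did not pass. Mthfd2, a dehydrogenase and cyclohydrolase that adult tissues usually hold at a low level (probe set 10545672), read 7.63, 7.75, 7.58, 7.41 and 7.58 in the vehicle-labelled arrays. It read 8.27, 8.44, 8.32, 7.74 and 7.83 in the tamoxifen-labelled arrays. Tamoxifen-labelled arrays 1, 2 and 3 were high, array 5 lay just above the vehicle-labelled range and array 4 within it. The rise was 0.53 ± 0.11 (limma adjusted p = 0.00332), with a 95% interval from 0.29 to 0.77. The SD was 0.12 in the vehicle-labelled arrays and 0.31 in the tamoxifen-labelled ones, the widest of the 9 enzymes in that group.

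Mthfd1l, which releases formate (probe set 10367641), read 7.27, 7.19, 7.22, 7.35 and 7.07 against 7.33, 7.38, 7.13, 7.24 and 6.93. Both the highest and the lowest value were tamoxifen-labelled, and the difference was -0.018 ± 0.078 (95% interval from -0.18 to 0.15). Aldh1l2, which oxidises the folate-bound formyl group (probe set 10371332), read 8.35, 8.36, 8.39, 8.25 and 8.25 against 8.45, 8.27, 8.23, 8.19 and 8.31. Its groups overlapped as well, with a difference of -0.030 ± 0.056 (95% interval from -0.15 to 0.089).

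In proline synthesis, Aldh18a1, which turns glutamate into the proline precursor (probe set 10467470), read 8.01, 8.08, 8.03, 7.98 and 8.01 in the vehicle-labelled arrays. It read 8.52, 8.50, 8.39, 8.23 and 8.24 in the tamoxifen-labelled arrays. The vehicle-labelled values were tight and all 5 tamoxifen-labelled values lay above them, with arrays 4 and 5 again the lowest of their group. The rise was 0.35 ± 0.061 (limma adjusted p = 0.000566), with a 95% interval from 0.22 to 0.48. Psat1, Mthfd2 and Aldh18a1 each stayed past the threshold in every alternative in which they were tested, with adjusted p up to 0.000243, 0.0158 and 0.00253.

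Promoter sequences show what stands before the start sites of the enzymes that rose, and of Pycr1, the enzyme that follows Aldh18a1. RefSeq promoter windows (assembly GRCm38.p6, 250 bases before to 50 after a start site) were found for 9 of the 10 genes, Aldh1l2 being the one not found. Psat1 had a second window for another start site, which makes 10 windows. They were searched on both strands for TGATGNAA (N is any base), the core that ATF4 is known to bind with its partners, and for CACGTG, the E-box bound by MYC and related factors. The 250 bases before the start are printed 5′ to 3′, with any match in capitals, for the 3 enzymes that rose and for Pycr1.
Psat1, chr19:15925060-15925309, minus strand: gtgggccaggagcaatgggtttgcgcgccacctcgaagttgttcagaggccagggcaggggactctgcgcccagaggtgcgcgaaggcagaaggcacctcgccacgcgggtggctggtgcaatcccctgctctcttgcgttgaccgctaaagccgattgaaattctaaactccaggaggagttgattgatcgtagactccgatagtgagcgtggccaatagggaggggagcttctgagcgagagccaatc
Mthfd2, chr6:83317605-83317854, minus strand: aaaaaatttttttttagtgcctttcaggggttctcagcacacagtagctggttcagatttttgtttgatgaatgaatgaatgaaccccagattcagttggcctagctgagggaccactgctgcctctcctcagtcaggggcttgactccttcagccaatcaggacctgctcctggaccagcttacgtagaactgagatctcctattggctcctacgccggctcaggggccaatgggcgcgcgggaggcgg
Aldh18a1, chr19:40588464-40588713, minus strand: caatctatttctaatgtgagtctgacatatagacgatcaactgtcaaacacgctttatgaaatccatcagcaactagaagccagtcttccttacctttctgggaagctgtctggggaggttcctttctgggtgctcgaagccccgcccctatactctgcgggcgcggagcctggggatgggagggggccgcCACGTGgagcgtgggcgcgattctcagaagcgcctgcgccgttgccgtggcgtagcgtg
Pycr1, chr11:120643749-120643998, minus strand: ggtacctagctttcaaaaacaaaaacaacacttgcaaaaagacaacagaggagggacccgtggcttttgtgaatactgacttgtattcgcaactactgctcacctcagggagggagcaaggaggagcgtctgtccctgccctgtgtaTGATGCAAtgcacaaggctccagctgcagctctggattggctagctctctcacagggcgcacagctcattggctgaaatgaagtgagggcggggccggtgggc
TGATGNAA was found in 1 of the 10 windows, as TGATGCAA in that of Pycr1, from base -103 to base -96 before the start. Of all 32851 RefSeq windows, 3.97% held it. CACGTG was found in 1 of the 10, from base -59 to base -54 of Aldh18a1, against 7.15% of all windows. Neither letters nor their absence in these windows show whether a factor binds there, and introns and more distant sequence were not searched.

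Each mitochondrial enzyme was set against its counterpart by taking the log2 difference of both genes within each array, which shows unequal change only. Of 5 planned pairs, 4 could be measured. Mthfd2 is the paralog of Mthfd2l, a mitochondrial enzyme of the same step. Mthfd2 minus Mthfd2l was -0.65, -0.41, -0.71, -0.62 and -0.54 in the vehicle-labelled and 0.29, 0.32, 0.22, -0.28 and -0.35 in the tamoxifen-labelled arrays. The groups did not overlap, and the shift was 0.63 ± 0.16 (exact two-sided permutation p = 0.00794, adjusted p = 0.0317 over the 4 pairs). No lower p can come from 5 against 5 arrays. Without vehicle-labelled array 1 the shift was 0.61 with an adjusted p of 0.0635, and without vehicle-labelled array 2, 3, 4 or 5 it was 0.67, 0.60, 0.62 or 0.64 with an adjusted p of 0.0952 each, so the call was lost while the shift stayed between 0.60 and 0.67. Mthfd2l itself read 8.18 ± 0.11 and 8.08 ± 0.080 (SD, n = 5), a difference that was not called.

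The other pairs did not pass. Aldh1l2 minus Aldh1l1 shifted by 0.21 ± 0.092 (exact permutation p = 0.0714, adjusted p = 0.143). Here the cytosolic gene Aldh1l1 was the one that fell, by 0.24 ± 0.057 (limma adjusted p = 0.00693). Its tamoxifen-labelled values, 6.46 to 6.65, lay around the signal of 6.53 below which genes were not tested. Shmt2 minus Shmt1 shifted by -0.12 ± 0.073 (exact permutation p = 0.167, adjusted p = 0.222). Mthfd1l minus the cytosolic enzyme gene Mthfd1 shifted by 0.0060 ± 0.099 (exact permutation p = 0.976, adjusted p = 0.976), and the sign of this shift changed when single arrays were left out.

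**Figure D2:**
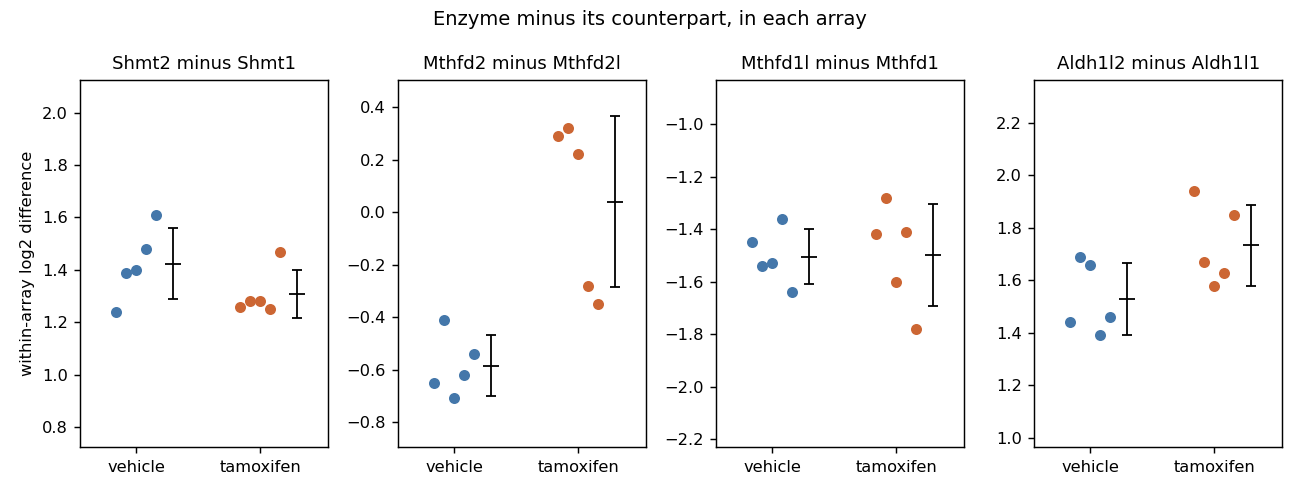
Within-array log2 difference (vertical axis) between an enzyme gene and its counterpart in each vehicle-labelled (blue) and tamoxifen-labelled (orange) array, with the mean and SD of 5 arrays in black and panels of equal height. Mthfd2 minus Mthfd2l lies between -0.71 and -0.41 in the vehicle-labelled arrays and between -0.35 and 0.32 in the tamoxifen-labelled ones, and the other 3 pairs overlap.

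Genes around the 9 enzymes moved in both directions. Their counts stand against 13.6% of all tested genes higher and 8.28% lower. Of 6 further enzymes of proline and ornithine metabolism tested, 1 rose and 4 fell, with a median of -0.19. Both mitochondrial steps of proline breakdown were among those that fell: Prodh, proline dehydrogenase, by 0.22 ± 0.048 (adjusted p = 0.00429), and Aldh4a1, which returns the intermediate to glutamate, by 0.42 ± 0.061 (adjusted p = 0.000104). Oat, which links ornithine to the same intermediate, fell by 0.19 ± 0.052 (adjusted p = 0.0158). Pepd, which frees proline from collagen peptides, rose by 0.29 ± 0.066 (adjusted p = 0.00455). Pycrl, a relative of Pycr1, fell by 0.19 ± 0.059 (adjusted p = 0.0290). That call was lost without vehicle-labelled array 1, 2 or 3 or tamoxifen-labelled array 1, 3 or 5, at adjusted p of 0.0696, 0.0613, 0.0665, 0.0612, 0.0712 and 0.0541 (0.00458 to 0.0712 over all alternatives). It was also lost with no filter on dim genes (limma adjusted p = 0.0627).

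Glutamate feeds both Psat1 and Aldh18a1. Of 5 genes of glutamate supply tested, 4 fell and 0 rose by limma (0 rose at an unadjusted p of 0.05), with a median of -0.29. The aspartate aminotransferases Got1 and Got2 fell by 0.41 ± 0.052 and 0.39 ± 0.045, glutamate dehydrogenase Glud1 by 0.29 ± 0.053 and the alanine aminotransferase Gpt2 by 0.25 ± 0.058. In each of the 4 the groups did not overlap, against 6.12% of all tested genes that were lower without overlap.

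Of 8 genes of mitochondrial folate and glycine cleavage tested beside the enzymes above, 1 fell and 0 rose by limma (0 at an unadjusted p of 0.05). That gene was Dld, at -0.93 ± 0.056 (adjusted p = 7.29e-09), a subunit that glycine cleavage shares with pyruvate dehydrogenase. The subunits particular to glycine cleavage, Gldc, Amt and Gcsh, were not called, at -0.11 ± 0.064, -0.018 ± 0.061 and 0.014 ± 0.069. Gldc read near the cutoff of 6.53, at 6.75 in the vehicle-labelled and 6.64 in the tamoxifen-labelled arrays. Slc25a32, the mitochondrial folate carrier, was not called at 0.058 ± 0.052.

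In the cytosolic folate cycle 3 of 11 tested genes rose and 1 fell, with a median of 0.096. Ggh, which trims folate tails, rose by 0.26 ± 0.052 (adjusted p = 0.00163) and the folate receptor gene Folr2, which macrophages also express, by 0.20 ± 0.052 (adjusted p = 0.0100). Methionine synthase Mtr rose by 0.22 ± 0.066 (adjusted p = 0.0251), a call lost without vehicle-labelled array 4 or tamoxifen-labelled array 1 or 4, at adjusted p of 0.0608, 0.0728 and 0.0549 (0.00562 to 0.0728 over all alternatives). With no filter on dim genes the Mtr call was lost too (limma adjusted p = 0.0576). The gene that fell was Aldh1l1. Of 6 genes of purine synthesis, which uses folate-bound carbon, 2 rose and 2 fell. Atic, which adds a formyl group, rose by 0.34 ± 0.058 and Ppat, the first step, by 0.33 ± 0.075, while Adsl fell by 0.39 ± 0.060. The remaining call, Pfas at -0.18, was lost without vehicle-labelled array 3 or 5 or tamoxifen-labelled array 1, 3 or 4, at adjusted p of 0.0631, 0.0898, 0.0931, 0.0574 and 0.0829 (0.00327 to 0.0931 over all alternatives). The Pfas call was also lost with no filter (limma adjusted p = 0.0690).

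Of 14 tested genes that carry or use serine and glycine, 3 rose and 1 fell, with a median of 0.019. Cth, which makes cysteine from the serine-derived cystathionine, fell by 0.35 ± 0.070 (adjusted p = 0.00182). The neutral amino acid transporter gene Slc1a5 rose by 0.23 ± 0.067 (adjusted p = 0.0229), a call lost without array 5 of either group (vehicle-labelled 0.0621, tamoxifen-labelled 0.0638, with 0.00832 to 0.0638 over all alternatives). With no filter the Slc1a5 call was lost too (limma adjusted p = 0.0536). The mitochondrial serine carrier gene Sfxn1 was not called at 0.092 ± 0.060. The other calls, Slc38a2 (adjusted p = 0.0423) and Sfxn3 (adjusted p = 0.0468), were near the threshold, and the count of calls in this list was 2 without any 1 of vehicle-labelled arrays 1 to 4 or of tamoxifen-labelled arrays 1, 4 and 5. Of 7 tested genes of the methionine cycle and methyl transfer, 3 rose and 3 fell. Among the falls was Gnmt at -0.18 ± 0.060 (limma adjusted p = 0.0412), a call lost in 9 of the 18 alternatives that tested it. Gamt, which spends a methyl group to make creatine, rose by 1.93 ± 0.064, Ahcyl2 rose by 0.29 ± 0.054, and Mat2b fell by 0.29 ± 0.053.

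Of 18 tested genes for ATF4 and its known targets outside the 10 enzymes, 6 rose (33.3%) and 0 fell by limma. Of all tested genes 13.6% were higher and 8.28% lower. At an unadjusted p of 0.05 also 0 of the list fell, and its median was 0.072. Atf4 itself rose by 0.23 ± 0.055 (adjusted p = 0.00746). Asparagine synthetase Asns rose by 0.33 ± 0.075 (adjusted p = 0.00436) and the transcription factor gene Atf3 by 0.66 ± 0.097 (adjusted p = 0.000122). Sesn2 rose by 0.18 ± 0.049 (adjusted p = 0.0171), a call lost without vehicle-labelled array 5 (adjusted p = 0.0519, with 0.00514 to 0.0519 over all alternatives). Without that array the count of calls in the list was 3. The remaining calls, Atf5 (limma adjusted p = 0.0287) and Stc2 (0.0435), were lost in 6 and 11 of 19 alternatives. Ddit3, Trib3 and Chac1, known targets in strong ATF4 responses, were not called, at 0.010 ± 0.071, -0.076 ± 0.057 and 0.0060 ± 0.089.

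**Figure D3:**
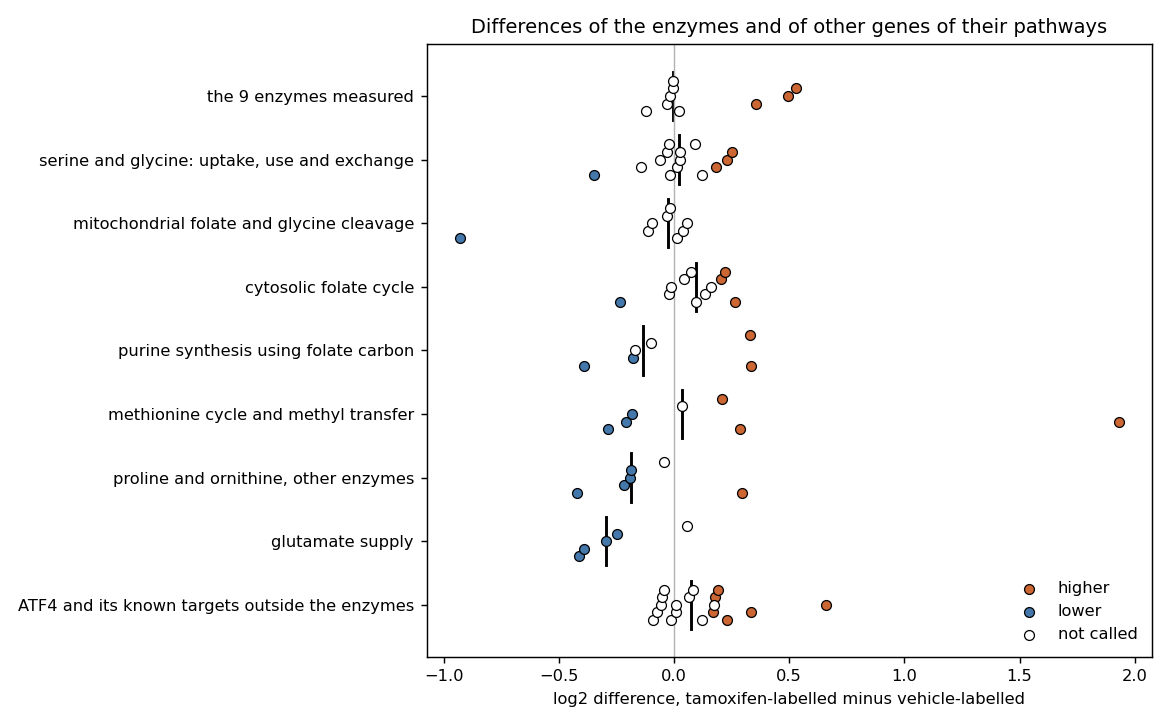
Log2 difference, tamoxifen-labelled minus vehicle-labelled (horizontal axis), of the 9 measured enzymes and of other genes of their pathways, 1 point per tested gene and 1 row per list, with the list's median as a black line. Orange and blue points passed the test as higher and lower and white points did not. The median is -0.19 for further proline and ornithine enzymes and -0.29 for glutamate supply, and the point at 1.93 is Gamt.

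Genes whose values followed an enzyme most closely over the 10 arrays were found by the root mean square difference of log2 signals, each gene centred on its own mean. For Psat1 they were Tceal9 (0.058), Dap (0.069) and the small heat shock protein gene Hspb1 (0.073). For Aldh18a1 they were Nhp2, a protein of small nucleolar particles (0.050), the purine enzyme gene Atic (0.051) and the actin regulator gene Wdr1 (0.051). For Mthfd2 they were 3 genes of extracellular matrix proteins, Postn (0.099), Vcan (0.10) and Tnc (0.12). Postn read 10.29, 10.11, 10.15, 10.01 and 10.05 against 10.82, 10.96, 10.83, 10.44 and 10.51. Tnc read 6.74, 6.63, 6.66, 6.63 and 6.63 against 7.51, 7.50, 7.64, 6.99 and 7.05. Arrays 4 and 5 were the lower ones of the tamoxifen-labelled group in both, as in Mthfd2. These are descriptions of likeness in 10 arrays, and the difference between the groups is part of it.

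**Figure D4:**
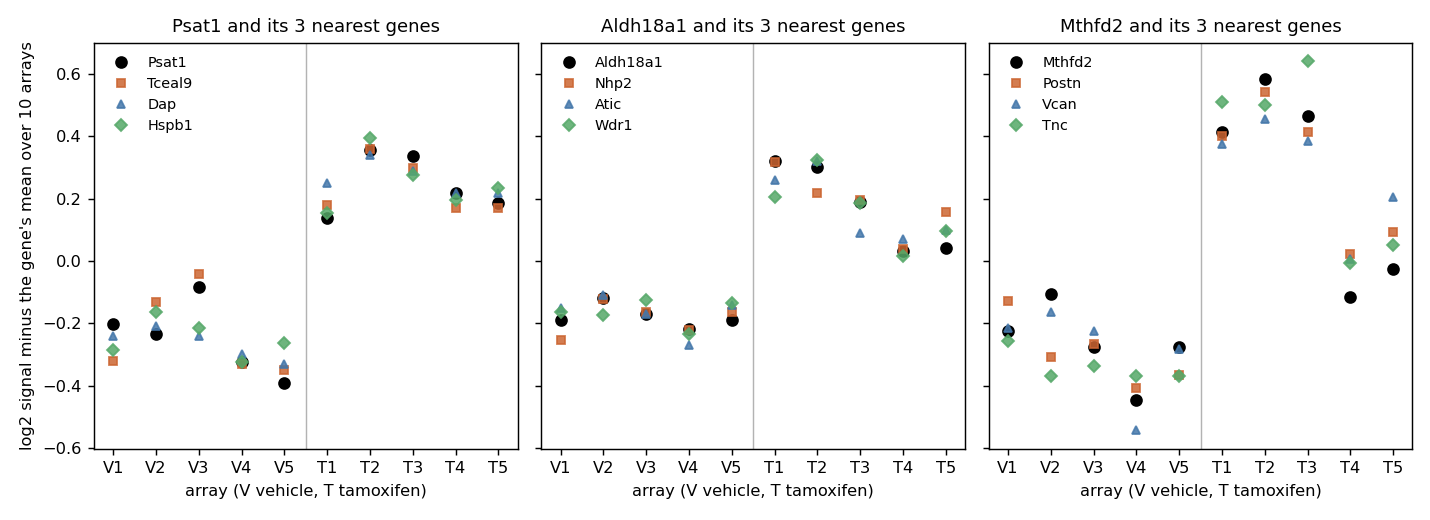
Log2 signal minus the gene's mean over the 10 arrays (vertical axis) in vehicle-labelled arrays V1 to V5 and tamoxifen-labelled arrays T1 to T5, for the 3 enzymes that rose (black circles) and for the 3 genes nearest to each (coloured). Mthfd2, Postn, Vcan and Tnc are lower in T4 and T5 than in T1, T2 and T3.

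Markers of some other cell types were also higher in the tamoxifen-labelled arrays. The counts below stand against 13.6% of all tested genes higher and 8.28% lower. Of 12 fibroblast markers 8 were higher and 0 lower by limma (10 higher and 0 lower at an unadjusted p of 0.05). Postn (0.59 ± 0.089) and Mfap5 (0.44 ± 0.067) rose most, while Pdgfra (0.018 ± 0.077) and Tcf21 (0.046 ± 0.080) were not called. The summed level of the 12 is the log2 of the summed signals. It was 14.61 to 14.67 in the vehicle-labelled and 14.78 to 14.93 in the tamoxifen-labelled arrays. The brightest probe sets weigh most in such a sum, here Dcn at 13.56 (vehicle-labelled mean). Dcn was not called at 0.10 ± 0.043, though its groups did not overlap (13.55 to 13.58 against 13.63 to 13.70). In tamoxifen-labelled arrays 1 to 5 the sum was 14.82, 14.93, 14.78, 14.82 and 14.78, and Mthfd2 read 8.27, 8.44, 8.32, 7.74 and 7.83. Of 11 macrophage markers 8 were higher and 0 lower (10 higher and 0 lower at an unadjusted p of 0.05). Their summed level was 12.62 to 12.82 against 12.86 to 13.13. Of 6 tested markers of cycling cells, which are known to use Mthfd2 and Shmt2, 1 was higher, Ccna2 at 0.24 ± 0.054. At an unadjusted p of 0.05, 2 of these markers were higher and 0 lower. The summed level of 8 measured markers was 9.96 to 10.01 against 10.04 to 10.38, without overlap. Birc5 and Top2a lay below the signal needed for testing, with differences of 0.19 ± 0.081 and 0.24 ± 0.091 in the fit with no filter. Of 9 endothelial markers 1 was higher, with a summed level of 13.78 to 13.91 against 13.80 to 13.93. Of 7 markers of smooth muscle cells and pericytes 2 were higher, Acta2 at 0.24 ± 0.071 and Cnn1 at 0.34 ± 0.070, with a summed level of 13.67 to 13.76 against 13.72 to 13.95. Of 10 heart muscle markers 1 was higher, Nppa at 0.42 ± 0.072, and 1 lower, Ryr2 at -0.16 ± 0.049. Their summed level was 17.32 to 17.34 against 17.36 to 17.41, so those groups did not overlap either. Of 4 tested skeletal muscle markers 1 was higher, Tnni2 at 0.21 ± 0.049, with a summed level of 9.68 to 9.94 against 9.74 to 9.97. For adipocytes it was 8.76 to 8.94 against 8.68 to 8.98, for erythroid cells 8.89 to 9.33 against 9.03 to 9.49, and of 2 tested markers each of adipocytes and erythroid cells 0 passed in either direction by limma (0 at an unadjusted p of 0.05). The part of these markers in the rises was not tested.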

How the data were processed

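The deposited values are log2 signals per probe set. Per the submitters' processing notes, the authors ran RMA in Affymetrix Expression Console 1.1, and detection calls were not used here. Of 35556 probe sets, 21789 had 1 annotated gene symbol, 1621 several and 12146 none. Single-symbol probe sets were used, with the highest mean for the 999 genes that had more than 1. Near-identical copies that a probe set can also bind were not separated. The dimmest 30% of genes were left out.

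The groups were compared with limma 3.58.1 in R 4.3.3 (no covariate, two-sided, Benjamini-Hochberg over 13957 genes, threshold 0.05), after the code was tested on simulated data. Gene pairs were compared by exact permutation over 252 splits. Alternatives were a replicate block, another variance prior (trended, robust), weighted arrays, quantile or median scaling, no or a 50% filter, averaged probe sets, several-gene probe sets included, and arrays left out singly. The enzymes, lists and tests were chosen with earlier results of these data known. Named genes are the enzymes, their counterparts, up to 4 called genes per list by smallest p and the 3 genes nearest to each enzyme that rose, though not every gene this allows. Uncalled list genes named beside them (Gldc, Amt, Gcsh, Slc25a32, Sfxn1, Ddit3, Trib3, Chac1), Pycrl, Atf5, Stc2 and Gnmt were picked after their values were seen. So were the markers Mfap5, Pdgfra, Tcf21, Dcn, Ccna2, Birc5, Top2a, Acta2, Cnn1, Nppa, Ryr2 and Tnni2. Plots used matplotlib 3.10.9 (Python 3.11.15).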

Additional observations from a re-analysis of the deposited data

Results flagged for a closer look

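Of 24 groups of 5 values that were checked (the 9 enzymes and 3 counterparts from the pairs, in both treatments), 1 held a value far from the others: Shmt1 in tamoxifen-labelled array 5, at 7.64 against 7.79 to 7.84 in the other 4 arrays of its group. Chance alone marks about 1 in 20 such groups.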

How the results depend on the processing

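Psat1, Mthfd2 and Aldh18a1 were higher under every alternative that tested them, with log2 differences from 0.45 to 0.54, 0.43 to 0.63 and 0.32 to 0.39, and 3 enzymes were higher in each alternative but the 50% filter (2, since Psat1 was then not tested). The count of lower enzymes was 1 (Shmt2) with array weights, 1 with quantile normalization, 1 with the 50% filter, and 0 to 1 when single arrays were left out. Of the 6 uncalled enzymes, Phgdh, Shmt1 and Mthfd1l changed sign in some alternatives, and Psph, Shmt2 and Aldh1l2 in none that were run. Phgdh was at 0.0002 with quantile normalization, 0.0020 with median centring and between -0.053 and 0.036 when single arrays were left out. Shmt1 was at 0.0020 with median centring and between -0.033 and 0.032, Mthfd1l between -0.062 and 0.050, and Mthfd1l minus Mthfd1 between -0.049 and 0.076. Leaving out single arrays gave Mthfd2 minus Mthfd2l values from 0.56 to 0.72, with the call lost without any 1 vehicle-labelled array. Calls in the serine and glycine list fell to 1 without the filter and were 2 to 3 without single arrays, and those in the ATF4 list were 3 to 6. Deviations of same-numbered arrays of the groups correlated weakly but positively (0.037 to 0.20 over genes). Of 5 vehicle-labelled arrays 4 correlated best with their own number, and the main fit did not use these numbers. With the replicate block 3522 genes were called in place of 3052 and the same 3 enzymes were higher. The pairing by number gave Mthfd2 minus Mthfd2l of 0.63 with an exact sign-flip adjusted p of 0.250, and 5 pairs cannot reach 0.05. The other planned pair was not analysed here.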
